A study of Mus musculus with 2 samples.

Results

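The 4 Hox clusters of the mouse, Hoxa, Hoxb, Hoxc and Hoxd, were examined for RNA polymerase II (Pol II) in fibroblasts, the cells that make connective tissue, grown from mouse embryos. The members are all 500 bp windows in 4 fixed intervals of the mm8 genome build: chromosome 6 from 52050001 to 52230000 (Hoxa, 180 kb), chromosome 11 from 95980001 to 96240000 (Hoxb, 260 kb), chromosome 15 from 102700001 to 102900000 (Hoxc, 200 kb) and chromosome 2 from 74380001 to 74620000 (Hoxd, 240 kb). They number 1760: 360 in Hoxa, 520 in Hoxb, 400 in Hoxc and 480 in Hoxd. Of these, 1704 held a read in either library, as did 4308660 windows of the genome in all, and every member is counted below. The intervals are defined by position and not by signal, but they were chosen with earlier results of these data known.

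Chromatin immunoprecipitation and sequencing (ChIP-seq) was done with the antibody 8WG16, which binds the repeated tail of the largest Pol II subunit. Both samples are from fibroblasts in DMEM with 10% serum and make up 1 group, with library 1 and library 2 as its replicates. The labels give no genotype, strain, embryo age, embryo part or treatment, and they name no separate cultures, so the spread between the libraries may be technical. The gel slice was 150 to 350 bp in library 1 and 150 to 300 bp in library 2, and the sequencing run differed too, so slice, run and sample cannot be told apart. Library 1 held 17548967 distinct nuclear reads and library 2 held 10941174. Library 2 was the more enriched: 53.7% of its reads lay in its own 388676 called windows. In library 1, 19.1% lay in its own 147027 called windows, so these shares cover unlike sets of windows. In windows called in both, library 2 held 3114364 of its reads and library 1 held 3042491. No input library was analysed here, and each library is set against its own background, a mean of 3.41 reads in a window of library 1 and of 1.29 in one of library 2.

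Hox genes encode homeodomain transcription factors that give cells their position along the body and limb axes. They lie in clusters in the order of their paralogue groups, and during development they are switched on from the group 1 end toward the group 13 end. Clusters or parts of clusters that are off are covered by Polycomb repressors, and fibroblasts in culture are known to keep a Hox pattern that depends on where in the body they came from. A RefSeq gene table of GRCm38 lists 39 Hox genes in the clusters: 11 in Hoxa, 10 in Hoxb, 9 in Hoxc and 9 in Hoxd. In that table Hoxa has Hoxa13 at its high-coordinate end, while the other clusters run from Hoxb13, Hoxc13 and Hoxd13 at lower coordinates to Hoxb1, Hoxc4 and Hoxd1. The table was used for this order only, and the order was not checked on mm8. No annotation of mm8 was used here, so no window is assigned to a gene, the names of the intervals could not be checked against gene models, and fibroblast markers could not be placed.

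The clusters also hold microRNA genes, which Pol II transcribes together with the Hox genes. Mature sequences from RefSeq (GRCm38) are printed for the families that the clusters share, because they show which clusters are paralogous copies. Each is written from 5′ to 3′ with the seed, bases 2 to 8, in capitals.
miR-10a-5p of the Hoxb cluster: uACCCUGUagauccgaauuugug
miR-10b-5p of the Hoxd cluster: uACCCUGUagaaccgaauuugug
miR-196a-5p of the Hoxb and Hoxc clusters: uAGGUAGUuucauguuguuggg
miR-196b-5p of the Hoxa cluster: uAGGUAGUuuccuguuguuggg
The miR-10 copies share the seed ACCCUGU and the miR-196 copies share AGGUAGU. No Pol II value below belongs to a single microRNA gene, since these too could not be placed on mm8.

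Pol II reads were concentrated in a part of each interval, and the clusters differed in how full that part was and in which library. Windows were called above background where a one-sided exact Poisson test gave an adjusted p of 0.01 or less (Benjamini-Hochberg, over all 4308660 windows). In library 1, 95 of the 360 Hoxa windows were called (26.4%), 56 of 480 in Hoxd (11.7%), 7 of 520 in Hoxb (1.35%) and 6 of 400 in Hoxc (1.5%), where 3.41% of all windows tested were called. Hoxa and Hoxd were thus above the genome share in library 1, and Hoxb and Hoxc below it. In library 2, 140 windows were called in Hoxa (38.9%), 141 in Hoxb (27.1%), 88 in Hoxc (22.0%) and 62 in Hoxd (12.9%). Of all windows tested, 9.02% were called. Genome shares count only windows with a read in either library, while member shares count windows with no read too. Every cluster was above the genome share in library 2, and Hoxd was the nearest to it. Of all windows tested, 2.90% were called in both libraries. Member windows called in both numbered 81 in Hoxa (22.5%), 37 in Hoxd (7.71%), 6 in Hoxc (1.5%) and 5 in Hoxb (0.962%). The local background, the mean of the surrounding 50 kb, left 9, 5, 0 and 1 of these, and a negative binomial background left 39, 17, 0 and 1. The local mean includes the cluster's own reads. Genome shares with these backgrounds are not given here, so the losses are not compared with those of other windows.

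**Figure D1:**
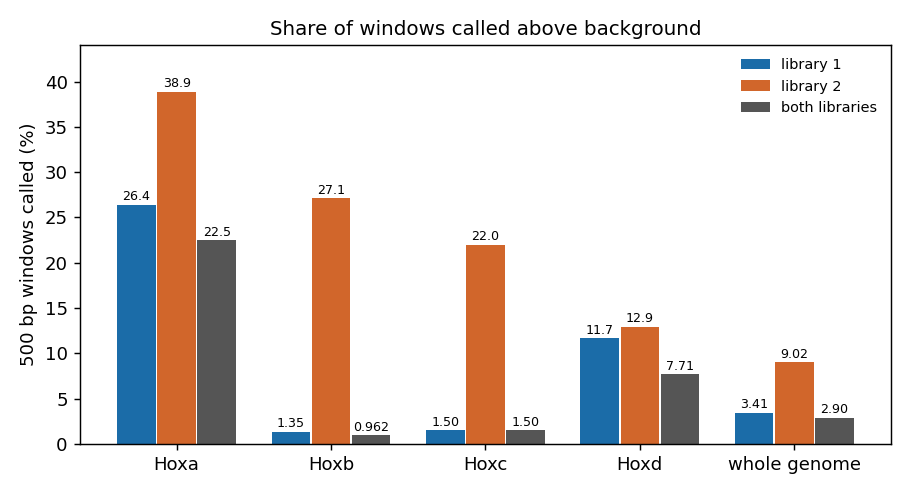
Percentage of 500 bp windows called above background in library 1, in library 2 and in both, for each Hox interval and for the whole genome (bars, from 0). Hoxa and Hoxd stand above the genome bar in each library, while Hoxb and Hoxc stand above it in library 2 only.

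The level of each whole interval, occupied and silent parts together, was highest in Hoxa. Hoxa held 1.10 RPM per kb (RPM, reads divided by the distinct nuclear reads of the library, in units of mega-reads) in library 1 and 1.31 in library 2, a mean of 1.20 ± 0.14 (SD, n = 2). Hoxb held 0.453 and 0.863 RPM per kb (0.658 ± 0.289), and Hoxc held 0.443 and 0.793 (0.618 ± 0.247). Hoxd held 0.674 and 0.521 RPM per kb (0.597 ± 0.108) and was the only interval with more in library 1. The genome mean was 0.464 RPM per kb in each library. Against each library's own background, Hoxa stood 2.84-fold in library 1 and 5.53-fold in library 2, and Hoxd 1.73-fold and 2.21-fold. Hoxb and Hoxc were close to background in library 1, at 1.17-fold and 1.14-fold, but stood 3.65-fold and 3.36-fold over it in library 2.

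Of the 6 pairs of clusters, the 3 that involve Hoxa gave the same order in both libraries. Reads per kb in Hoxa were 2.43 times those of Hoxb in library 1 (95% exact interval 2.30 to 2.57) and 1.51 times in library 2 (1.43 to 1.60). They were 2.49 and 1.65 times those of Hoxc, and 1.64 and 2.51 times those of Hoxd. The largest adjusted p of these 6 tests was 2.55e-48 (exact conditional binomial test, adjusted over 12 tests). Such tests cover counting error only, and windows of 1 cluster are not replicates. Reads per kb also depend on how much unoccupied sequence an interval holds. Runs of at least 5 kb with no call in either library made up 38.6% of Hoxa and 73.3% of Hoxd. In windows called in library 2, Hoxa held 0.876 times the library 1 reads per window of Hoxd (0.816 to 0.941). In windows called in library 1, it held 1.58 times the library 2 reads per window (1.43 to 1.74). By reads per kb of the whole interval, Hoxd was on opposite sides of Hoxb and Hoxc in the libraries. Hoxb held 0.673 times the reads per kb of Hoxd in library 1 (0.636 to 0.713) and 1.66 times in library 2 (1.55 to 1.77), and Hoxc held 0.658 times (0.618 to 0.700) and 1.52 times (1.42 to 1.64). Hoxb and Hoxc were close to each other, with ratios of 1.02 (0.957 to 1.09) and 1.09 (1.02 to 1.16).

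**Figure D2:**
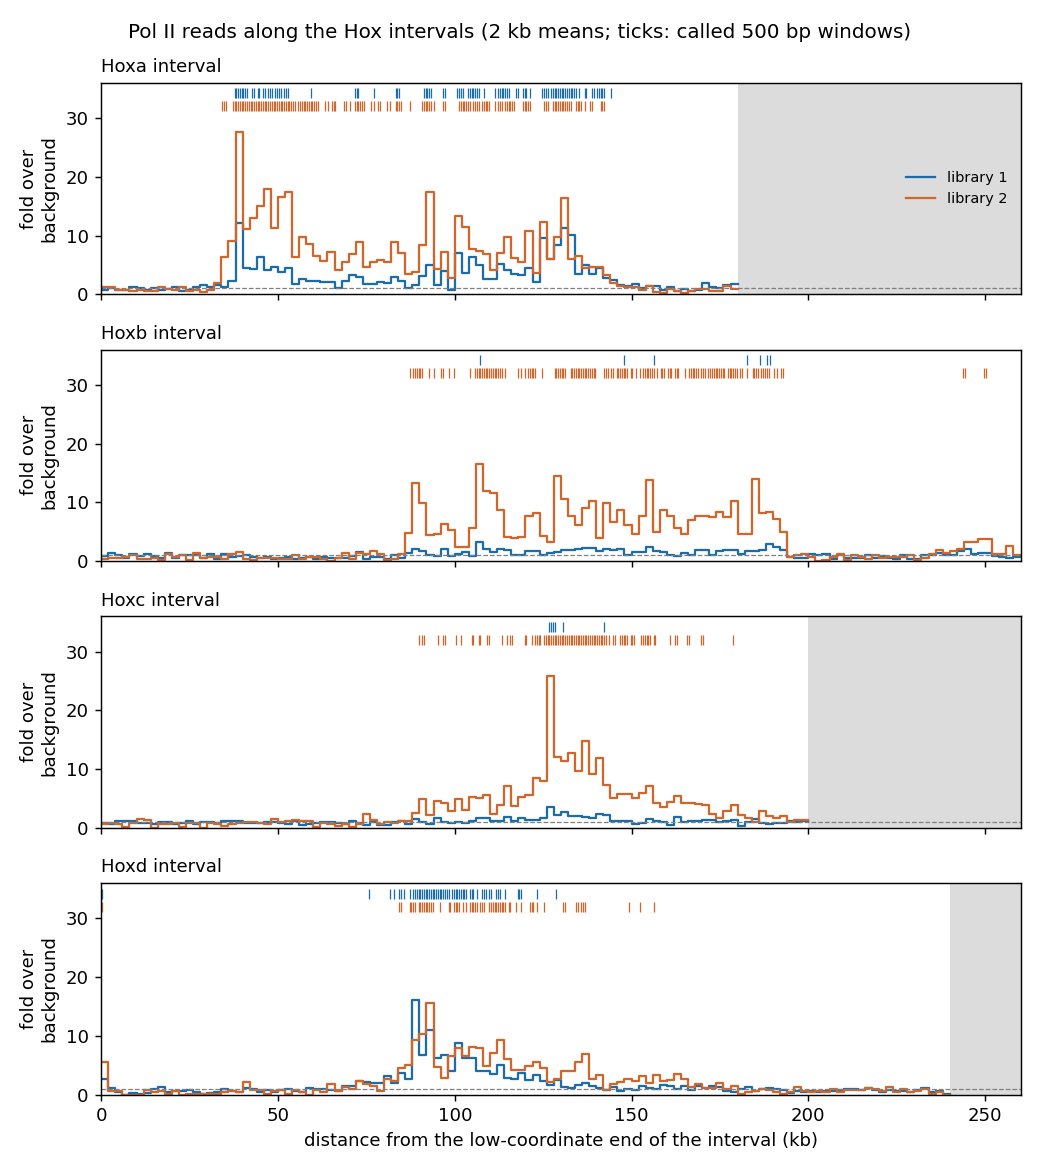
Reads as fold over each library's background (2 kb means, lines) against distance from the low-coordinate end of each Hox interval in kb, with ticks above for each 500 bp window called in a library. The dashed line marks background and grey areas lie outside the interval. Hoxa and Hoxd rise in both libraries, and Hoxb and Hoxc rise mainly in library 2. There the first to the last called window spanned 163.5 kb in Hoxb and 89.5 kb in Hoxc, of which occupied stretches of library 2 covered 82 and 48 kb.

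In Hoxa the called windows began and ended at nearly the same places in both libraries. Called windows ran from 52087501 to 52194500 in library 1 and from 52084001 to 52192500 in library 2, spans of 107 and 108.5 kb. Within these spans 44.4% of the windows were called in library 1 and 64.5% in library 2. The rise at the low-coordinate end was steep. The bin from 52070001 to 52080000 held 73 reads in library 1 and 19 in library 2, 1.07-fold and 0.736-fold of background. The bin from 52090001 to 52100000 held 328 and 353 reads, 4.81-fold and 13.7-fold.

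In Hoxa, 19 occupied stretches, windows called in both libraries and joined over at most 1 window, covered 45.5 kb, with a median width of 1.5 kb. The stretch with the most reads ran over 10.5 kb from 52092501 to 52103000, with 20.3 RPM in library 1 and 40.2 in library 2 (30.3 ± 14.1, SD, n = 2). It stood 4.98-fold and 16.2-fold over background. The stretch from 52177501 to 52183000, toward the high-coordinate end, held 21.0 and 15.3 RPM (18.1 ± 4.08), 9.83-fold and 11.8-fold. The stretch from 52087501 to 52091500, at the low-coordinate border, held 13.3 and 20.4 RPM (16.9 ± 4.98), 8.57-fold and 21.6-fold. Thus the stretches at the low-coordinate end held more RPM in library 2, and the stretch near the high-coordinate end held more in library 1. The fullest window of the interval, 52088501 to 52089000, held 54 reads in library 1 and 65 in library 2 (4.51 ± 2.02 RPM), above 94.8% of all windows called in both libraries.

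In Hoxd the occupied part was narrower and lay near the middle of the interval. The first window of the interval was called in both libraries, and the next call lay at 74455501 in library 1 and at 74464001 in library 2. The last called window ended at 74509000 in library 1 and at 74536500 in library 2. The 12 occupied stretches covered 21.5 kb, with a median width of 0.75 kb. The fullest ran over 7 kb from 74467001 to 74474000 with 27.6 RPM in library 1 and 18.5 in library 2 (23.0 ± 6.49, SD, n = 2), 10.2-fold and 11.2-fold over background. A stretch of equal width from 74479501 to 74486500 held 18.2 and 12.3 RPM (15.3 ± 4.17), 6.70-fold and 7.47-fold. The third by level, from 74491501 to 74493000, held 3.99 and 3.66 RPM (3.82 ± 0.24). All of these held more RPM in library 1, the less enriched library. The fullest window, 74468001 to 74468500, held 82 and 27 reads (3.57 ± 1.56 RPM), above 91.2% of windows called in both.

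Hoxb was occupied broadly in library 2, with few calls in library 1. In library 2, 19 stretches covered 82 kb, and the widest, 21.5 kb from 96122001 to 96143500, held 432 reads, 7.78-fold over background. In library 1 the same stretch held 241 reads, 1.64-fold. The 5 stretches called in both libraries were each 1 window wide. The window from 96087001 to 96087500, the fullest of the interval, held 1.08 RPM in library 1 and 2.83 in library 2 (1.96 ± 1.24, SD, n = 2), 5.57-fold and 24.0-fold over background. The window from 96168001 to 96168500 held 0.684 and 1.55 RPM (1.12 ± 0.62), and that from 96162501 to 96163000 held 0.741 and 0.914 RPM (0.827 ± 0.122). These windows were well below the tops of Hoxa and Hoxd, and the fullest was above 74.1% of all windows called in both libraries.

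In Hoxc the fullest part was a core near the middle of the called span. In library 2 this core was a stretch of 24 kb from 102821501 to 102845500 with 708 reads, 11.4-fold over background, and in library 1 it held 342 reads, 2.09-fold. All 6 windows called in library 1 lay inside this core and were called in library 2 too. They formed 3 stretches. The one from 102826501 to 102828500 held 3.25 RPM in library 1 and 10.3 in library 2 (6.79 ± 5.01, SD, n = 2), 4.18-fold and 21.9-fold over background. The window from 102842001 to 102842500 held 0.912 and 1.46 RPM (1.19 ± 0.39), and that from 102830501 to 102831000 held 0.855 and 1.01 RPM (0.930 ± 0.107). The fullest window, 102827501 to 102828000, held 14 and 43 reads (2.36 ± 2.21 RPM), above 81.2% of windows called in both.

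Each interval was also split at its midpoint, a division that uses position only. In library 2 Hoxc was the most one-sided, and in library 1 Hoxd. The low-coordinate side of Hoxc, toward Hoxc13, was at 0.915-fold and 1.12-fold of background in libraries 1 and 2, and its high-coordinate side, toward Hoxc4, at 1.37-fold and 5.59-fold. Reads on the low-coordinate side were 0.670 times those on the other in library 1 (95% exact interval 0.604 to 0.742) and 0.201 times in library 2 (0.176 to 0.228). Hoxb leaned the same way, toward Hoxb1, with ratios of 0.785 (0.719 to 0.857) and 0.656 (0.604 to 0.712). Hoxd leaned toward Hoxd13, with 2.28 times (2.11 to 2.48) and 1.54 times (1.38 to 1.72) as many reads on the low-coordinate side. For these 3 clusters the largest adjusted p was 5.49e-08 (exact conditional binomial test over 8 tests). Where the midpoint falls depends on how much silent sequence the interval holds at each end, so a lean toward a gene is not a lean within the gene row itself.

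Hoxa leaned to opposite sides in the libraries. Library 1 held 1409 reads on the low-coordinate side and 2077 on the high-coordinate side, a ratio of 0.678 (0.634 to 0.726, adjusted p = 2.44e-29, exact conditional binomial test). Library 2 held 1416 and 1155, a ratio of 1.23 (1.13 to 1.33, adjusted p = 2.87e-07, exact conditional binomial test). Library 1 was thus fuller on the high-coordinate side, toward Hoxa13, and library 2 on the low-coordinate side.

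**Figure D3:**
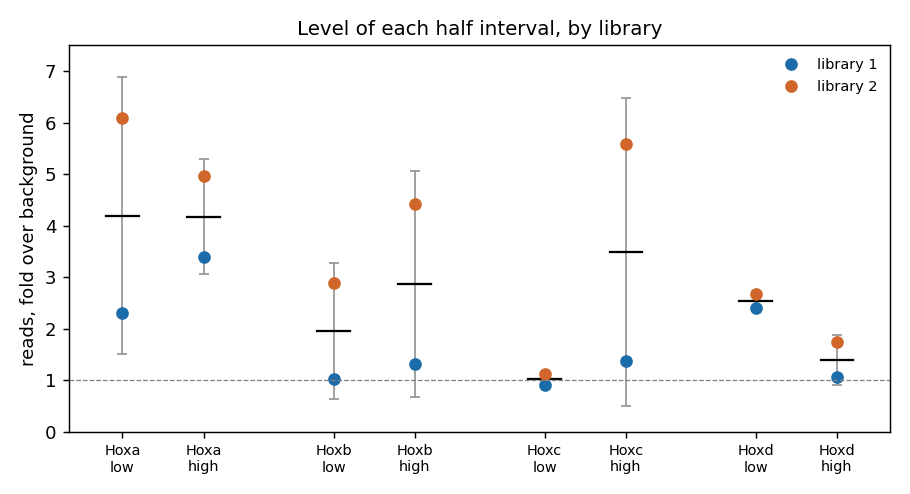
Reads as fold over background on the low-coordinate and high-coordinate side of each Hox interval, split at the midpoint, in library 1 and library 2 (points), with the mean (bar) and SD of the 2 libraries (whiskers). The dashed line marks background. The low-coordinate side of Hoxd lies at 2.41-fold and 2.67-fold, while the high-coordinate side of Hoxc reaches 5.59-fold in library 2 and 1.37-fold in library 1.

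The libraries differed in how they shared their reads among the clusters. This was looked at after the values above were seen. Of every pair of clusters, the ratio of library 1 to library 2 reads was compared by Fisher's exact test, which does not depend on how the libraries are scaled. That ratio was 0.406 times as high in Hoxb as in Hoxd (95% interval 0.372 to 0.443, adjusted p = 1.04e-92, exact test) and 0.432 times as high in Hoxc as in Hoxd (0.393 to 0.475, adjusted p = 7.56e-69). In Hoxa it was 0.653 times as high as in Hoxd (0.602 to 0.709, adjusted p = 3.09e-24) and 1.61 times as high as in Hoxb (1.49 to 1.74, adjusted p = 5.75e-33, exact test). The order was Hoxd, Hoxa, then Hoxc and Hoxb, which did not differ beyond counting error (0.940, 0.859 to 1.03, adjusted p = 0.183, exact test). With background reads subtracted, Hoxb against Hoxd gave 0.103 and Hoxc against Hoxd 0.0978, so these gaps became wider. By how much depends on the background subtracted, and these values have no interval. Hoxb held 295 reads above background in library 1 and 1782 in library 2, while Hoxd held 1199 and 747.

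Within Hoxa the ratio of library 1 to library 2 reads was 0.553 times as high on the low-coordinate side as on the high-coordinate side (0.499 to 0.613, adjusted p = 2.56e-29, Fisher's exact test, adjusted over 10 tests). With background subtracted it was 0.424 times as high. Within Hoxd it was 1.48 times as high on the low-coordinate side (1.30 to 1.70, adjusted p = 1.53e-08, exact test), and 11.2 times with background subtracted, where the other side held 45 reads above background in library 1. In both clusters the side with the higher ratio was the one toward the group 13 gene. Without subtraction this held in Hoxb and Hoxc too, but there that side also holds the longest silent stretch, 87 and 89.5 kb. Background alone has more reads in library 1, 3.41 in a window against 1.29. The part of that in these values was not tested. Within Hoxb the ratio was 1.20 times as high on the low-coordinate side (1.06 to 1.35, adjusted p = 0.00335, exact test). With background subtracted it turned to 0.152, where the low-coordinate side held only 23 reads above background in library 1. Its direction thus depended on the background. Within Hoxc it was 3.34 times as high on the low-coordinate side (2.84 to 3.92, adjusted p = 1.64e-50, exact test). That side of library 1 was below background, so the value has no background-subtracted counterpart.

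Windows chosen in 1 library were also measured in the other, a comparison added after the data were seen, so that the measured library did not choose them. Windows called in library 2 stood there between 8.94-fold over background in Hoxd and 11.5-fold in Hoxa. In library 1 the same windows stood at 5.48-fold in Hoxd (95% Poisson interval 5.17 to 5.80) and 4.80-fold in Hoxa (4.6 to 5.0), against 3.63-fold for all windows of the genome called in library 2. In Hoxb they stood at 1.80-fold (1.68 to 1.93) and in Hoxc at 1.73-fold (1.58 to 1.88). Per window, Hoxb thus held 0.329 times the library 1 reads of Hoxd (0.301 to 0.360, adjusted p = 3.71e-135) and Hoxc 0.315 times (0.28 to 0.35, adjusted p = 4.80e-116, exact conditional binomial test over 6 pairs). Of the windows called in library 2, 57.9% in Hoxa and 59.7% in Hoxd were also called in library 1, but 3.55% in Hoxb and 6.82% in Hoxc, against 32.1% over the genome.

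The reverse choice rests on few windows in Hoxb and Hoxc. Of the windows called in library 1, 81 of 95 in Hoxa, 5 of 7 in Hoxb, 6 of 6 in Hoxc and 37 of 56 in Hoxd were also called in library 2, against 84.8% over the genome. Hoxa (85.3%) was near that share and Hoxd (66.1%) below it. Their library 2 level was 18.1-fold over background in Hoxc (15.2 to 21.3), 12.3-fold in Hoxa, 9.73-fold in Hoxb (7.8 to 12) and 7.80-fold in Hoxd (7.17 to 8.47), against 16.9-fold over the genome. By this choice Hoxc held 2.32 times the library 2 reads per window of Hoxd (1.91 to 2.79, adjusted p = 8.62e-16), while Hoxb against Hoxd gave 1.25 (0.985 to 1.57, adjusted p = 0.0612, exact conditional binomial test over 6 pairs). Hoxd thus stood below the genome by this measure and above it by the other. Across all windows of a cluster, log2 RPM (pseudocount 0.1) in the libraries correlated with a Pearson r of 0.69 in Hoxa, 0.68 in Hoxd, 0.50 in Hoxb and 0.45 in Hoxc, and a Spearman rho of 0.70, 0.61, 0.50 and 0.42. These correlations are across windows, which share mappability and are not replicates.

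Single windows were tested between the libraries after each was scaled to its own reads in windows that both called. Of 466 member windows called in either library, 12 were higher in library 1 (0.550% of all such windows of the genome were) and 3 were higher in library 2 (0.567% of all), by an exact two-sided binomial test adjusted over 410963 windows. All 12 lay in Hoxd (9) and Hoxa (3), and all 3 lay in Hoxb (2) and Hoxc (1). Counts followed the scaling: scaling by all reads gave 4 and 34, where 0.0769% and 6.63% of all windows tested were called, and a trimmed-mean scaling gave 24 and 0, where 1.86% and 0.175% were. The largest ratios toward library 1 were at 52183001 in Hoxa, with 48 reads against 5 (9.83-fold after scaling, adjusted p = 4.36e-07, exact test), and at 74476001 in Hoxd, with 27 against 3 (9.21-fold, adjusted p = 0.00119). Hoxd windows from 74469001, 74468501 and 74476501 followed, with 36 reads against 4, 57 against 7 and 36 against 5. Toward library 2, the Hoxb windows from 96164501 and 96108501 held 30 and 32 reads in library 2 against 5 and 6 in library 1. The Hoxc window from 102826001 held 36 against 7. All p-values here come from the exact test and compare these libraries only.

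Bins of 10 kb showed where along each cluster the libraries diverged. The bins were added after the data were seen, and those with a window called in either library were tested by the same exact test over 62617 bins of the genome. In Hoxb, 10 of 14 bins were higher in library 2 and none in library 1, where 6.25% and 27.7% of all bins were. These 10 were adjacent, from 96070001 to 96170000. In Hoxc, 4 of 10 bins were higher in library 2, from 102820001 to 102860000, and 1 in library 1, from 102780001 to 102790000, a bin near background (0.967-fold and 1.32-fold). In Hoxd, 6 of 10 were higher in library 1, from 74450001 to 74510000, and none in library 2. In Hoxa, 5 of 12 were higher in library 1, from 52150001 to 52200000, and 1 in library 2, from 52100001 to 52110000.

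The ratio rose step by step across those Hoxa bins. It was 1.42, 1.55, 1.94, 2.36 and 2.77 from 52150001 to 52190001, the last with 173 reads in library 1 and 64 in library 2 (95% exact interval 2.07 to 3.75). In Hoxd it fell with distance from the Hoxd13 side, from 3.71 in the bin from 74450001 to 3.13, 2.35, 2.25 and 1.53 in the next bins and 1.69 in the bin from 74500001. The Hoxa bin from 52190001 stood 2.54-fold and 2.48-fold over background, against 6.65-fold and 7.63-fold in the bin before it. Bins with no call in either library had ratios of 1.19 to 5.80, all above 1, so the ratio also moves with how near a bin is to background, and the part of that in these trends was not tested. With scaling by all reads, 2 Hoxa and 4 Hoxd bins were higher in library 1, and 7 Hoxa bins, 11 Hoxb, 8 Hoxc and 1 Hoxd were higher in library 2. Over the genome this scaling called 3.50% and 38.0% of bins, and a trimmed-mean scaling 61.8% and 1.76%. With the trimmed-mean scaling, 3 Hoxb and 2 Hoxc bins were higher in library 2.

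**Figure D4:**
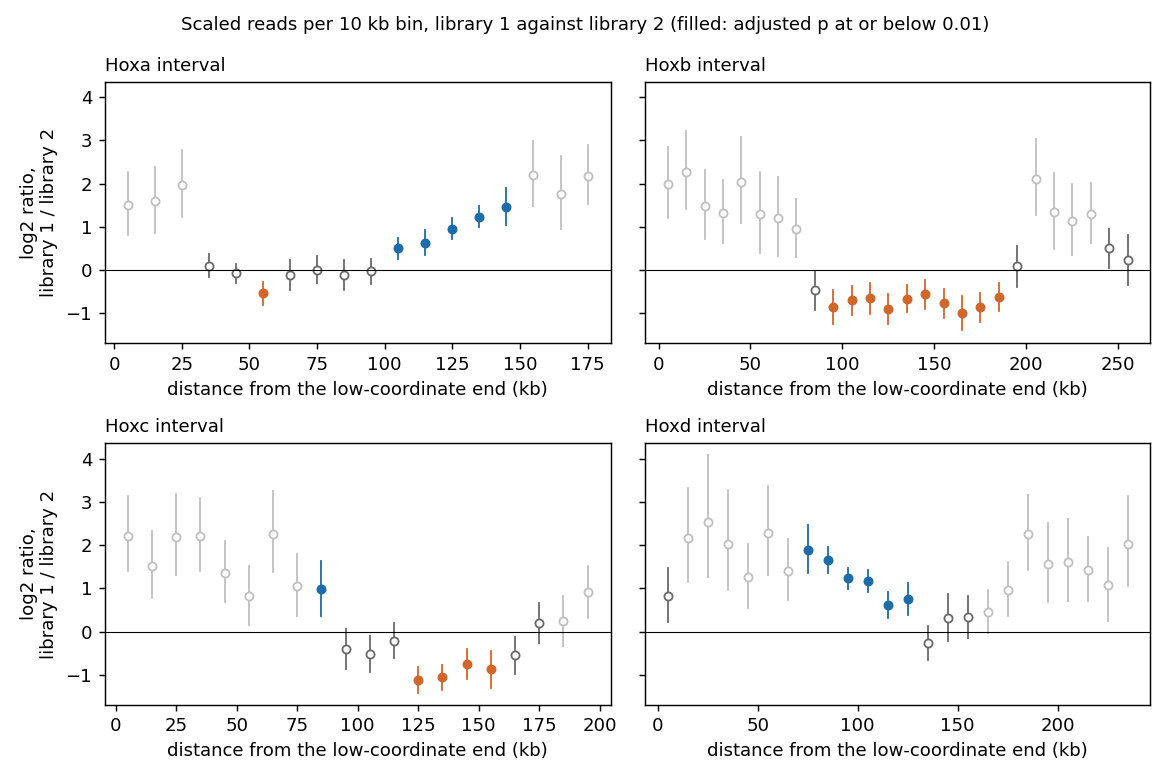
Log2 ratio of scaled reads in library 1 to library 2 for each 10 kb bin (points) with its 95% exact interval (lines), against distance from the low-coordinate end of each Hox interval in kb. Filled points passed the test, open dark points did not, and pale points hold no called window and were not tested. Hoxb has 10 filled points below 0 and Hoxd has 6 above 0.

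Silent stretches, runs of at least 10 windows (5 kb) with no call in either library, covered most of 3 intervals. They made up 38.6% of Hoxa (69.5 kb), 58.5% of Hoxb (152 kb), 59.25% of Hoxc (118.5 kb) and 73.3% of Hoxd (176 kb). The longest was 89.5 kb in Hoxc, from 102700001 to 102789500, with 541 reads in library 1 and 186 in library 2, 0.886-fold and 0.805-fold of background. In Hoxb it was 87 kb, from 95980001 to 96067000, with 459 and 167 reads (0.773-fold and 0.743-fold). In Hoxd it was 83.5 kb, from 74536501 to 74620000, with 480 and 212 reads (0.843-fold and 0.983-fold). In Hoxa it was 35.5 kb, from 52194501 to 52230000, with 309 and 79 reads (1.28-fold and 0.862-fold). Those of Hoxb and Hoxc lay at the group 13 end of the interval, and that of Hoxd at the group 1 end. Each longest stretch reached an edge of its interval, so its length and the silent shares depend on where the interval was cut. Whether these stretches lie within the gene row could not be checked, since no gene was placed on mm8. Hoxa had silent stretches of nearly equal length at both ends, the other being 34 kb from 52050001 to 52084000, at 1.02-fold and 0.877-fold of background. Hoxd had nearly as long a silent stretch at its other end, 75 kb from 74380501 to 74455500, at 0.762-fold and 0.604-fold of background. Other silent stretches were not all low. In library 2 those from 96224501 and 96230501 in Hoxb stood at 2.25-fold and 1.55-fold of background. Those from 102870501 and 102879001 in Hoxc stood at 2.47-fold and 1.77-fold, and that from 74517001 in Hoxd at 2.19-fold. In library 1 these were at 0.771-fold to 1.35-fold. The Hoxd stretch from 74456001 stood at 2.13-fold in library 1. That from 96173001 in Hoxb was at 0.830-fold and 0.882-fold. Since the calls chose all these stretches, their levels are a description.

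Stretches uncalled in 1 library were then measured in the other. Runs uncalled in library 2 were near background in library 1: 0.811-fold in Hoxb (95% Poisson interval 0.757 to 0.868, adjusted p = 6.92e-10), 0.918-fold in Hoxc (0.853 to 0.986, adjusted p = 0.0188), 0.927-fold in Hoxd (0.875 to 0.982, adjusted p = 0.0108) and 1.18-fold in Hoxa (1.08 to 1.28, adjusted p = 0.00021, exact Poisson test over 8 tests). None of the 304 Hoxb and 237 Hoxc windows in these runs was called in library 1, and 4 of 368 in Hoxd and 1 of 143 in Hoxa were. The deficit in Hoxb depended on the background used: with background taken 10 kb or more from calls it was 0.990-fold (adjusted p = 0.791, exact test), and Hoxc and Hoxd turned to 1.12-fold and 1.13-fold. Runs uncalled in library 1 were not silent in library 2. They stood at 3.43-fold in Hoxb (3.29 to 3.58), 3.03-fold in Hoxc (2.88 to 3.19), 2.42-fold in Hoxa (2.23 to 2.61) and 1.21-fold in Hoxd (1.12 to 1.31, adjusted p = 5.53e-06, exact Poisson test). With the background from 10 kb or more away they were 5.17-fold, 4.57-fold, 3.64-fold and 1.83-fold.

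Local peaks were few. Summits are windows that both libraries called, that average 2 RPM or more and that top all others within 2 kb. They numbered 10: 7 in Hoxa, 2 in Hoxd, 1 in Hoxc and none in Hoxb. Reads from 1 to 5 kb on each side, of which the nearest overlap the windows that choose a summit, were compared (exact binomial test, two-sided, adjusted over 12016 summits). At 4 of the 10 the test passed in both libraries with more reads on the same side, against 41.0% of all summits, a share near the background. With reads beyond the windows that choose a summit, a setting added after the data were seen, 3 of the 10 passed, against 35.5% of all. The Hoxa summit at 52088501, at the border of the occupied part, had 45 reads to the left and 125 to the right in library 1 (adjusted p = 3.85e-09) and 55 and 133 in library 2 (adjusted p = 4.02e-08, exact test). The Hoxa summit at 52102001 leaned to lower coordinates, toward the first (124 and 56 reads, then 153 and 77). The Hoxa summit at 52151501 leaned to higher coordinates (70 and 150, then 48 and 89).

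The Hoxd summit at 74468001 also leaned to higher coordinates, with 74 and 220 reads in library 1 and 38 and 107 in library 2 (adjusted p = 6.14e-17 and 2.86e-08, exact test). The other 6 summits did not pass in both libraries on the same side. Those in Hoxa were at 52142501 (62 and 78 reads in library 1, 58 and 59 in library 2), 52170001 (80 and 85, 55 and 40), 52175001 (69 and 189, 58 and 76) and 52180501 (192 and 195, 71 and 71). The Hoxd summit at 74473501 had 218 and 179 reads, then 90 and 45, and the Hoxc summit at 102827501 had 51 and 56, then 122 and 119. Whether a flank holds a second peak or Pol II spreading from the summit was not tested.

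Several borders of the intervals fell in sequence near background. The 20 kb outside Hoxa and Hoxb and on the low-coordinate side of Hoxc had 0.638-fold to 1.21-fold of background in library 1 and 0.639-fold to 1.28-fold in library 2, with 1 window called in library 2. On the high-coordinate side of Hoxc library 2 stood at 1.70-fold inside and 1.66-fold outside, and library 1 had 1 called window outside. The 20 kb inside the high-coordinate edge of Hoxb held 122 reads in library 2, 2.36-fold, with 4 called windows. The 20 kb outside Hoxd had 1.86-fold and 1.55-fold in library 1 and 2.48-fold and 3.10-fold in library 2, with 1 and 2 windows called in both, while the 20 kb inside had 0.769-fold and 0.608-fold in library 1. Its single called window at the low-coordinate edge, 74380001 to 74380500 with 24 and 25 reads, lay at that border.

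Repeated starts made up 8.89 to 10.8% of the reads of library 1 in the clusters and 2.09 to 4.14% of those of library 2, against 10.1% and 4.54% over the genome. Windows with no read in either library numbered 5 in Hoxa, 14 in Hoxb, 6 in Hoxc and 31 in Hoxd.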

How the data were processed

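Pol II ChIP-seq was done on 2 samples of 1 group. Sonication gave fragments averaging 500 bp, and 18 PCR cycles followed, per the labels' protocols. The authors deposited lists of alignments to mm8. Per the file headers these were made by Bowtie, set to --best with -n 2, -l 36, -e 70, -k 2 and -m 2, so reads fitting more than 2 sites were lost. No version of it is named in the sources used here.

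Each value was read as the left-most base, counted from 0, of a 36-base read. This was taken from the values. Reads with 1 site on the nuclear chromosomes were kept once per start and strand, shifted by 60 bp and counted in 500 bp windows. Background was the mean over windows once called ones had been taken out in 3 rounds. The smallest count called was 12 reads in library 1 and 7 in library 2. For the direction of ratios 0.5 reads were added. The scripts were tested on simulated data. Exact intervals cover counting error only. Per cluster, the regions named are the 3 occupied stretches with the most RPM, the longest silent stretch, the fullest window and each summit. Of windows that differ between libraries, up to 5 each way are named. Other stretches and bins were picked after their values were seen. Members, tests and lists were chosen with earlier results of these data known. The 10 kb bins, the comparison of clusters between libraries and the windows chosen in 1 library were added after the data were seen. Alternatives changed the threshold, background, tiling, shift, scaling, repeated starts and joining. NumPy 2.4.6 and SciPy 1.17.1 under Python 3.11.15 did the computing, and matplotlib 3.10.9 the plots. One gene name of the clusters is not reported here.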

Additional observations from a re-analysis of the deposited data

Results flagged for a closer look

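Reads placed at 2 sites, which entered no comparison above, were present in each cluster, more than the 3 reads that a count of 0 allows. With repeated starts collapsed, library 1 held 32 in Hoxa, 35 in Hoxb, 16 in Hoxc and 41 in Hoxd, and library 2 held 14, 31, 7 and 20. Per kb they were 0.172 to 0.382 times as frequent as over the genome in library 1 and 0.144 to 0.490 times in library 2.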

How the results depend on the processing

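No paired analysis was possible because both libraries belong to 1 group and no groups were compared. The libraries differ in depth, enrichment and gel slice, and each stands alone when the other is left out, so those values have no replicate check. Windows called in both (81 in Hoxa, 5 in Hoxb, 6 in Hoxc, 37 in Hoxd) became 41, 1, 1 and 17 at a threshold of 0.0001, 9, 1, 0 and 5 with local background and 39, 1, 0 and 17 with a negative binomial background. Genome shares under these settings are not given here, so the losses are not compared with those of other windows. Tiling offset by a part of a window gave 9 in Hoxb. Using 1 library alone gave 95 to 140, 7 to 141, 6 to 88 and 56 to 62. Occupied stretches (19, 5, 3 and 12) became 11 in Hoxa and 4 in Hoxd when joined over 4 windows, 7, 1, 0 and 3 with local background, and 1 in Hoxb and 1 in Hoxc at 0.0001. With 1 library they were 6 to 19 in Hoxb and 3 to 19 in Hoxc.

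Mean log2 ratios of reads per kb with background subtracted were 2.12 for Hoxa over Hoxb (0.94 without), 2.33 over Hoxc (1.02), 1.62 over Hoxd (1.02), 0.21 for Hoxb over Hoxc (0.08), -0.50 for Hoxb over Hoxd (0.08) and -0.71 for Hoxc over Hoxd (0.0017), so these last 2 turned sign. With 1 library, Hoxb over Hoxc was 0.033 to 0.12, Hoxb over Hoxd -0.57 to 0.73, Hoxc over Hoxd -0.60 to 0.61 and the low over the high side of Hoxa -0.56 to 0.29. These last 3 turned sign with the library, and the cause was not tested.

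Runs uncalled in library 2 stood in library 1 at 0.990-fold in Hoxb, 1.12-fold in Hoxc and 1.13-fold in Hoxd with background from windows 10 kb or more from calls, and Hoxd at 1.10-fold with a threshold of 0.0001. Member windows higher in library 1 (12) became 4 with scaling by all reads and 24 with a trimmed mean. Those higher in library 2 (3) became 34 and 0, and 6 with all reads kept. With all reads kept the share over the genome rose too, from 0.567% to 0.944%. Of the 10 kb bins, scaling by all reads gave 2 Hoxa and 0 Hoxc bins higher in library 1, and 7 Hoxa, 8 Hoxc and 1 Hoxd bins higher in library 2. The trimmed mean gave 1 Hoxb bin higher in library 1, and 0 Hoxa, 3 Hoxb and 2 Hoxc bins higher in library 2. Over the genome these scalings moved the shares of bins higher in library 1 and library 2 to 3.50% and 38.0%, and to 61.8% and 1.76%. The median log2 ratio of all windows tested moved from -0.31 to -1.02 and 0.07. At 4 RPM, 1 of 1 summit was one-sided in both libraries, against 50.7% of all 4629 summits of the genome at that level.

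Log2 odds of library 1 to library 2 reads with background subtracted were 2.70 for Hoxa against Hoxb, 2.77 against Hoxc and -0.58 against Hoxd. They were 0.075 for Hoxb against Hoxc, -3.28 for Hoxb against Hoxd and -3.35 for Hoxc against Hoxd. Within clusters they were -1.24 in Hoxa, -2.71 in Hoxb (0.26 without, so reversed) and 3.49 in Hoxd. The Hoxb value rests on 23 library 1 reads above background on the low-coordinate side. That of Hoxd rests on 45 on the high-coordinate side. The ratio of Hoxa to Hoxd in library 1 reads per window, in windows called in library 2, had a log2 of -0.22 with local background (adjusted p = 0.0574, exact test).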
